A study of Mus musculus with 6 samples.

Results

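The genes described here build, cap, cut and anchor actin filaments. The list holds 47 named mouse genes, chosen by name from textbook roles, but with earlier results of these data known. The roles are actins, proteins that bind actin monomers, the Arp2/3 complex and its activators, formins, and severing and capping proteins. Further roles are the kinases and the phosphatase that act on cofilin, membrane linkers, bundlers and the transcription factor Srf. Of the 47 genes, 43 had at least 1 probe set annotated to that gene alone and were measured among the 18193 genes tested. Actr2, Arpc3 and Fmnl3 had no probe set named for them, and Arpc1b had only probe sets that also carry another gene name. Diap1, Diap2 and Diap3 of the list are the genes now called Diaph1, Diaph2 and Diaph3.

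The values come from mouse embryonic stem cells of the Oct4-Gip line, a reporter line in which Oct4 regulatory sequence marks undifferentiated cells, grown in serum with the cytokine LIF. Of 6 arrays, 3 carried RNA of cells in which esiRNA targeted Panct1, a long noncoding RNA, and 3 carried RNA of cells given esiRNA against Luciferase. An esiRNA is an enzymatically cut pool of short interfering RNAs. Both groups received 800 ng of esiRNA per 60000 cells and were collected at 72 hours. One line and one esiRNA pool per target were used, and as the probe annotation names none of the sets for Panct1, the depletion itself was not assessed. Correlations over probe sets were 0.997 to 0.998 within a group and 0.991 to 0.993 between groups. The defining stem cell markers were bright in both groups: Pou5f1 averaged 13.69 in knockdown and 13.93 in control, on the log2 signal scale used for all levels below. Pou5f1 was nonetheless 1 of 4 among 10 such markers called lower in knockdown (log2 difference -0.24, limma adjusted p = 0.0324).

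Actin switches between single monomers and filaments. Profilins and thymosins bind monomers, the Arp2/3 complex starts side branches on existing filaments, formins start and lengthen straight ones, capping proteins close filament ends, and gelsolin and cofilin cut filaments. LIM kinases switch cofilin off by phosphorylation and Slingshot phosphatases switch it on again. Free actin monomers hold the coactivators MRTF-A and MRTF-B in the cytoplasm, and when monomers are used up these coactivators join SRF on many genes of the actin cytoskeleton.

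On the Panct1 esiRNA arrays 16 of the 43 measured genes were higher than in control (37.2%) and 1, Enah, was lower (2.33%). The test was limma at a Benjamini-Hochberg adjusted p under 0.05 over all genes. Over all 18193 genes the same test called 24.2%, with 12.9% risen and 11.3% fallen. Genes read by brighter probe sets are called more often, and among genes whose set lay in the brighter 50% the shares were 17.3% risen and 15.1% fallen, against 15 and 1 of the 39 members there. At a change of at least 1.5-fold, 7 members had risen and 0 had fallen (limma, as above, with 1 member lower at an unadjusted p under 0.05), against 4.6% and 2.14% of all genes. The median difference, knockdown minus control, was 0.14 on the log2 scale over the members and -0.0167 over all genes. For 19 members every knockdown array lay above every control array and for 2 every one lay below, against 18.7% and 19.6% of all genes. Differences were above 0 for 35 of the 43 members, and this share of 81.4% stands beside 45.4% of all genes. As the members were chosen with earlier results of these data known, these shares are no independent evidence. Outside the formins and Ena/VASP proteins, 0 members were lower at an unadjusted p under 0.05 when read by the set used for the gene. Some dimmer sets, among them those of Cfl1 and Fscn1 described below, were lower at that level.

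**Figure D1:**
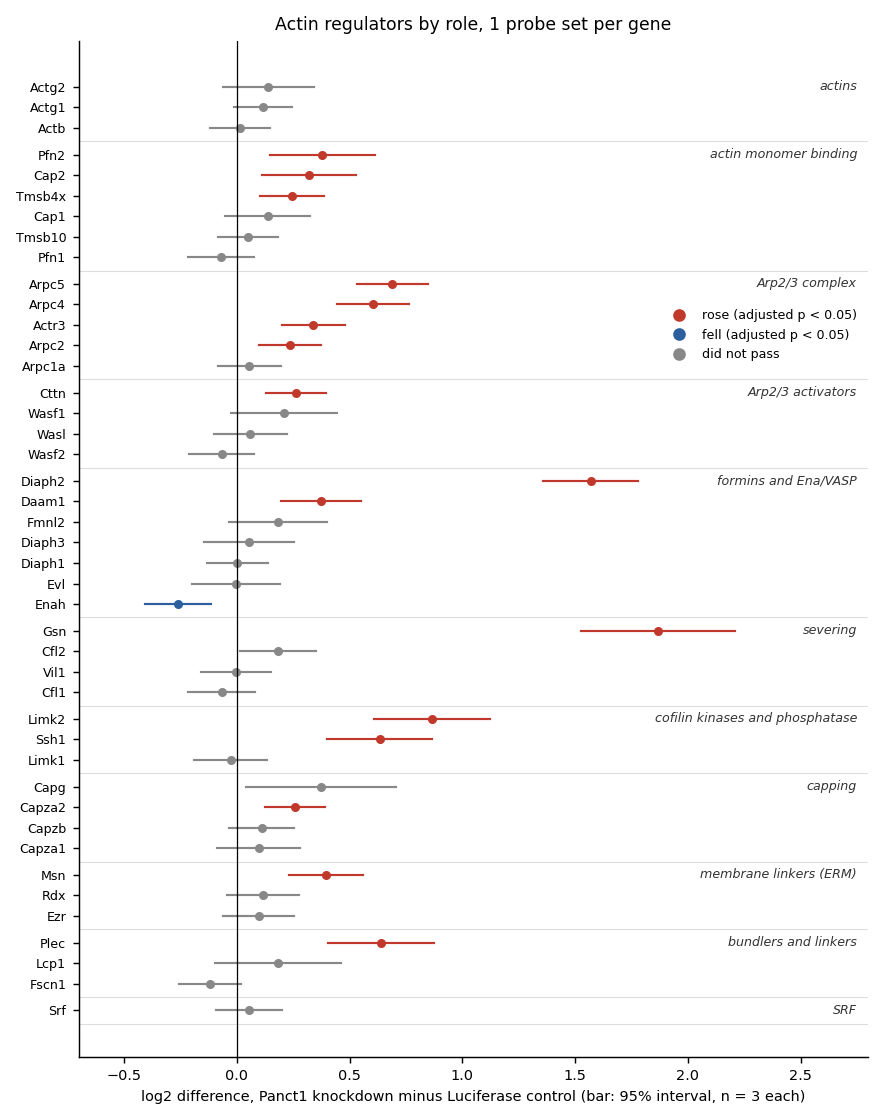
Log2 difference, Panct1 knockdown minus Luciferase control, for the 43 measured genes grouped by role, with 95% intervals from limma (n = 3 arrays per group). Gsn and Diaph2 lie far to the right at 1.87 and 1.57, the called Arp2/3 subunits lie between 0.24 and 0.69, and Enah is the one called gene left of 0.

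Gsn encodes gelsolin, which cuts filaments and caps their ends when calcium is present, and it rose the most of all members. Its signal was 9.61, 9.36 and 9.14 on the knockdown arrays, against 7.31, 7.81 and 7.39 on the control arrays. The groups did not overlap, and the gap between them was several times the spread within either. The rise was 3.65-fold, or 1.87 in log2 units (SE 0.15, limma adjusted p = 5.70e-05). Of 6 probe sets for Gsn, 5 rose, by 0.65 to 2.17, and the dimmest, at 4.18 in knockdown and 4.28 in control, differed by -0.10 without passing.

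The other severing proteins did not pass. Cfl1, the main cofilin of nonmuscle cells, read 13.66, 13.64 and 13.65 in knockdown and 13.73, 13.63 and 13.79 in control. These groups overlapped, with a difference of -0.07 (95% interval -0.21 to 0.08, limma adjusted p = 0.527). Its dimmer probe set differed by -0.35, with all knockdown arrays below the controls (adjusted p = 0.0517 over all probe sets), and the gene passed as fallen when read by that set (0.0308 over genes). Cfl2, the muscle cofilin, differed by 0.18 without overlap between groups (adjusted p = 0.115). Villin, encoded by Vil1, is a severing and bundling protein of gut microvilli, and it differed by -0.0033 at a mean signal of 5.52 in knockdown and 5.53 in control.

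Among enzymes that control cofilin, Limk2 and Ssh1 rose and Limk1 did not pass. Limk2, a LIM kinase, read 10.48, 10.23 and 10.0 in knockdown and 9.32, 9.45 and 9.34 in control. All knockdown arrays lay above all controls, with the widest spread in knockdown. The rise was 1.82-fold (log2 difference 0.87, SE 0.11, limma adjusted p = 7.00e-04), and 2 of its 3 probe sets passed. Its relative Limk1 differed by -0.03 (95% interval -0.19 to 0.13), an interval that lies wholly below that of Limk2 (0.61 to 1.12), although the difference between both genes was not itself tested.

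Ssh1, the Slingshot phosphatase that reactivates cofilin, read 9.21, 9.0 and 8.85 in knockdown against 8.28, 8.36 and 8.52 in control. The groups did not overlap, and the rise was 1.55-fold (limma adjusted p = 0.00222). Only 1 of its 4 probe sets passed, the others lying between -0.16 and 0.26, and the call was lost with the mean of its probe sets (adjusted p = 0.0840). In both Limk2 and Ssh1 knockdown replicate 1 was the highest of the 6 arrays, as it was in Gsn. Without that replicate the log2 differences of Gsn and Limk2 were 1.75 and 0.75.

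**Figure D2:**
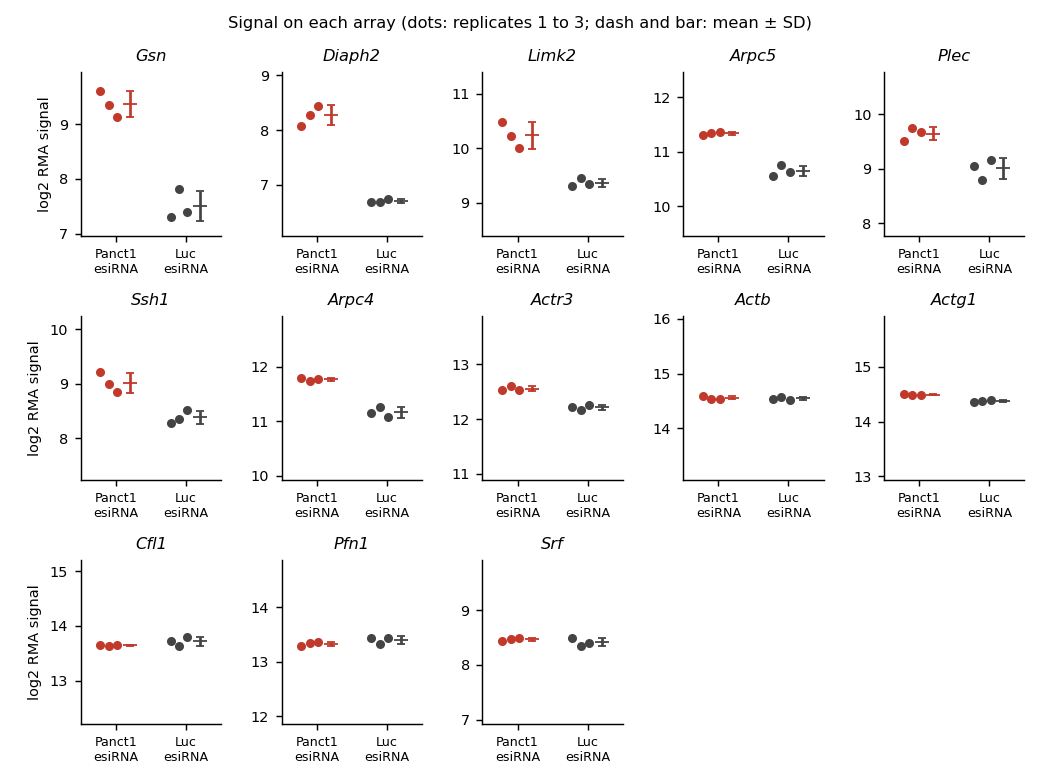
Log2 RMA signal on each array for the 7 members called with a log2 difference of at least 0.4 and for 6 further members, with knockdown left of control, dots for replicates and the mean ± SD beside them. Every panel spans 3 log2 units. The groups stand apart for Gsn, Diaph2, Limk2, Arpc5, Plec, Ssh1, Arpc4 and Actr3, and lie level for Actb, Cfl1, Pfn1 and Srf.

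The Arp2/3 complex had the largest share of called genes of the roles with at least 4 measured members: 4 of 5 measured subunits rose and 0 fell. Over all genes 12.9% rose and 11.3% fell. Arpc5, the smallest subunit, read 11.31, 11.34 and 11.36 in knockdown and 10.56, 10.75 and 10.63 in control. Arpc4, a core subunit, read 11.79, 11.74 and 11.78 in knockdown and 11.16, 11.27 and 11.07 in control. For both genes the knockdown arrays lay close together and above every control array. The rises were 1.61-fold for Arpc5 (limma adjusted p = 1.72e-04) and 1.52-fold for Arpc4 (adjusted p = 3.69e-04). Both Arpc4 probe sets passed, while the second Arpc5 set, at 4.03 in knockdown and 4.08 in control, differed by -0.05.

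Actr3, the Arp3 subunit that with Arp2 mimics the end of a filament, read 12.53, 12.61 and 12.53 in knockdown and 12.23, 12.17 and 12.25 in control. The rise was 1.27-fold (log2 difference 0.34, limma adjusted p = 0.00402), with 2 of 3 probe sets past the threshold. Arpc2, part of the core that holds the mother filament, rose by 0.24 (adjusted p = 0.0213). That call was lost without knockdown replicate 2 or 3 or control replicate 2 or 3 (adjusted p from 0.0602 to 0.0781), and on centring each array over the tested genes (0.0675). Its second, dim probe set differed by 0.02, and the call was also lost with the mean of its sets (difference 0.13, adjusted p = 0.276) and with its most variable set (0.02, adjusted p = 0.949). Arpc1a, a regulatory subunit, differed by 0.06 (95% interval -0.08 to 0.20) with overlapping groups.

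Arpc1b, the relative of Arpc1a, is not among the measured genes because its 2 probe sets are annotated to Gm5637 as well. The brighter of these sets read 11.24, 11.36 and 11.46 in knockdown and 10.79, 10.77 and 10.80 in control. It rose by 0.57 in the fit over all probe sets (limma adjusted p = 0.00138), where 7.82% of sets rose, but which of both genes it reads is not known. The dimmer set differed by -0.06.

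Of the activators of Arp2/3, 1 of 4 rose, against 12.9% of all genes. Cttn, cortactin, which stabilises branches, rose by 0.26 (limma adjusted p = 0.0114), with 12.13 to 12.20 in knockdown and 11.88 to 11.91 in control. The call depends on the probe set, since 2 of 5 sets passed and the mean over sets did not (adjusted p = 0.207). Wasl, which encodes N-WASP, and Wasf2, a WAVE protein, differed by 0.06 and -0.07 with overlapping groups. Wasf1 differed by 0.21 (adjusted p = 0.189) and passed without knockdown replicate 3, which was its lowest knockdown array (0.0409), and with array weights (0.0485).

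Among formins and Ena/VASP proteins 2 of 7 rose (28.6%) and 1 fell (14.3%), against 12.9% and 11.3% of all genes. Diaph2, a formin of the Diaphanous family, read 8.08, 8.28 and 8.45 in knockdown and 6.68, 6.68 and 6.74 in control. The control arrays were nearly identical and the lowest knockdown array was more than 1 log2 unit above them. The rise was 2.97-fold (log2 difference 1.57, SE 0.09, limma adjusted p = 1.11e-05), and both probe sets rose, the second by 1.49. Its relatives Diaph1 and Diaph3 differed by 0.0033 (95% interval -0.13 to 0.14) and 0.05 (-0.15 to 0.25), and no probe set of either gene passed.

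Daam1, a formin linked to Wnt planar polarity signalling, rose by 0.37 (limma adjusted p = 0.00822). Both of its brighter probe sets passed, while the dimmest differed by -0.11. Fmnl2, a formin of the cell front, differed by 0.18 (adjusted p = 0.213). Enah, or Mena, which lengthens filaments by keeping capping proteins off their ends, was the one member that fell. It read 13.12, 13.22 and 13.16 in knockdown and 13.47, 13.36 and 13.45 in control, so every knockdown array was lower. The brightest set fell by 0.26 (adjusted p = 0.0181), and of its 6 probe sets 4 fell, by up to 0.70, with the remaining sets at -0.29 and -0.64.

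The Enah call on the brightest set was lost without knockdown replicate 1 (adjusted p = 0.0515), control replicate 1 (0.0732) or control replicate 3 (0.0554). Evl, a relative of Enah, differed by -0.0033 with overlapping groups.

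**Figure D3:**
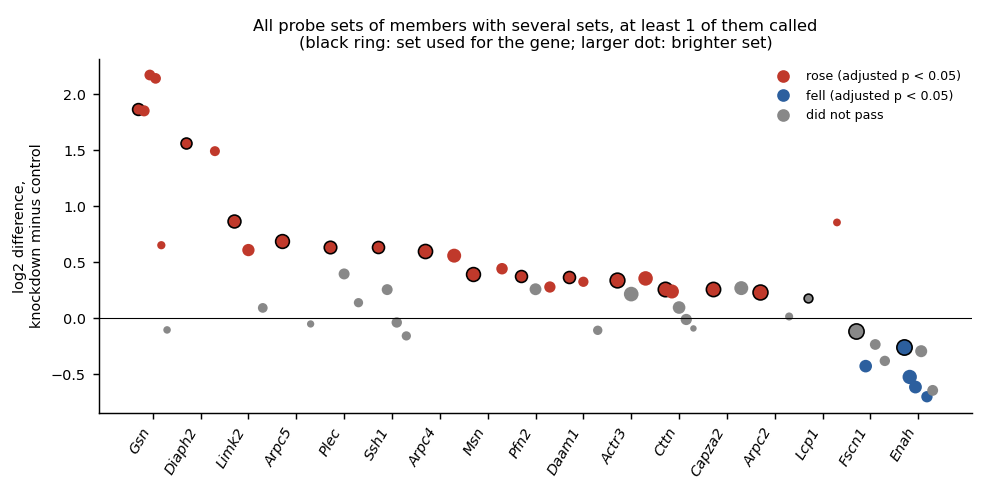
Log2 difference, knockdown minus control, of every probe set for the members that have several sets and at least 1 called set. Ringed dots are the sets used for the gene, larger dots are brighter sets, and colours give the call over all probe sets. Both sets of Diaph2 rose and all 6 sets of Enah lie below 0, while the sets of Gsn run from -0.10 to 2.17. Ssh1, Plec, Cttn, Fscn1 and Lcp1 are among the genes with both called and uncalled sets.

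The actins themselves did not pass: 0 of 3 rose or fell in limma, and 0 at an unadjusted p under 0.05. Actb, beta-actin, read 14.59, 14.54 and 14.54 in knockdown and 14.54, 14.57 and 14.52 in control. The groups overlapped and the difference was 0.01 (95% interval -0.12 to 0.15). The 3 Affymetrix control sets along the Actb transcript, which were left out of the tests, differed by 0.03 at the 3′ end, 0.02 in the middle and 0.03 at the 5′ end. Actg1, gamma-actin, read 14.51, 14.48 and 14.49 in knockdown and 14.36, 14.38 and 14.39 in control. Its groups did not overlap, but the difference of 0.12 passed only with an intensity trend and robust variance (limma adjusted p = 0.00545, and 0.189 without it). Both genes lie near the top of the scale, where the highest signal of any probe set was 14.98. Actg2, the smooth muscle gamma-actin, differed by 0.14 at signals under the lower quartile, which was 4.65 to 4.70 over the arrays.

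Of the proteins that bind actin monomers, 3 of 6 rose, all by less than 0.40, and 0 fell, against 12.9% and 11.3% of all genes. Pfn1, the main profilin, read 13.29, 13.34 and 13.36 in knockdown and 13.44, 13.32 and 13.44 in control, an overlap with a difference of -0.07 (95% interval -0.22 to 0.08). Pfn2, the profilin best known from neurons, rose by 0.38 (limma adjusted p = 0.0269), and Cap2, a cyclase-associated protein of striated muscle, rose by 0.32 (adjusted p = 0.0337), though 0 of its 2 probe sets passed in the fit over all probe sets (adjusted p = 0.0559 and 0.0868). Tmsb4x, thymosin beta 4, the main monomer store of many cells, rose by 0.25 to 13.90 ± 0.05 in knockdown, against 13.65 ± 0.04 in control (SD, n = 3; adjusted p = 0.0199). Tmsb10 and Cap1 differed by 0.05 and 0.14 with overlapping groups.

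Each of these 3 calls was lost on leaving out single arrays. The call for Pfn2 was lost without knockdown replicate 2 or 3 or control replicate 1 or 3 (limma adjusted p from 0.0501 to 0.0868), that for Cap2 without the same arrays (0.0796 to 0.121), and that for Tmsb4x without knockdown replicate 2 or 3 or control replicate 1 or 2 (0.0553 to 0.0783). On centring each array over the tested genes Cap2 and Tmsb4x also missed the threshold (0.0624 and 0.0583).

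Of the capping proteins, Capza2, an alpha subunit of the heterodimer that closes fast-growing ends, rose by 0.26 (limma adjusted p = 0.0118). It missed the threshold without knockdown replicate 2 (0.0535) or control replicate 1 (0.0507). The other alpha subunit, Capza1, and the beta subunit Capzb differed by 0.10 and 0.11. Capg, a gelsolin relative that caps but does not cut, read 10.64, 10.44 and 10.30 in knockdown and 9.88, 10.43 and 9.95 in control. Control replicate 2 lay among the knockdown arrays, the difference was 0.37 (adjusted p = 0.102), and without that array it was 0.55 and passed (0.0103).

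Of the linkers between actin and the membrane, Msn, moesin, rose by 0.40 (limma adjusted p = 0.00402), with 11.27 to 11.35 in knockdown and 10.82 to 11.03 in control, and both of its probe sets rose. Its relatives Ezr, ezrin, and Rdx, radixin, differed by 0.10 and 0.12 with overlapping groups. Plec, plectin, which ties intermediate filaments to actin and to junctions, read 9.51, 9.75 and 9.68 in knockdown and 9.06, 8.80 and 9.16 in control. The groups did not overlap and the rise was 1.56-fold (adjusted p = 0.00227). It rests on 1 of 3 probe sets, and without sets of the kinds that can cross-hybridise the call was lost (0.0723).

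Fascin, encoded by Fscn1, bundles filaments in filopodia. All 4 of its probe sets were lower in knockdown with no overlap between groups, but only 1 fell past the threshold, by 0.43 (limma adjusted p = 0.00795 over all probe sets, where 6.76% fell), and the brightest differed by -0.12 (adjusted p = 0.213 over genes, and 0.0162 for the mean of its sets). Lcp1, L-plastin, a bundler of blood cells, was dim. Its brighter set read 5.38, 5.62 and 5.08 in knockdown and 5.10, 5.20 and 5.23 in control and did not pass, except without knockdown replicate 3 (adjusted p = 0.0433). Its second set rose by 0.86 to 4.89, against a control mean of 4.04 that lies below the arrays' lower quartile.

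**Figure D4:**
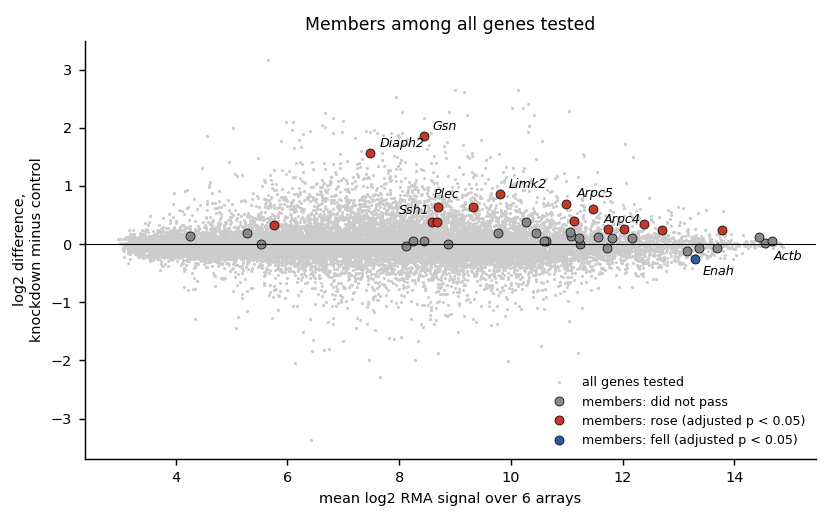
Log2 difference, knockdown minus control, against the mean log2 RMA signal over 6 arrays, for all 18193 genes tested (grey points) and the 43 members (ringed, coloured by call). Gsn and Diaph2 lie in the upper part of the cloud at middle signals, the called Arp2/3 subunits lie at bright signals where the cloud is narrow, and Actb lies at 0 near the bright end.

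Srf, the transcription factor that MRTF proteins bind, read 8.44, 8.47 and 8.50 in knockdown and 8.49, 8.35 and 8.41 in control. The groups overlapped, the difference was 0.05 (95% interval -0.09 to 0.20), and its second probe set differed by 0.08. The coactivator genes Mrtfa and Mrtfb differed by -0.11 and 0.21 without passing (limma adjusted p = 0.407 and 0.0700), and Myocd, their relative in muscle, by 0.0033. SRF binds DNA at the CArG box, and the following stretches of RefSeq promoters (build GRCm38.p6) are shown because they are the members' matches to that box, in capitals. They run 5′ to 3′ along the strand of the gene, from the 300 bases around an annotated start (250 before, 50 after).
Srf, chr17:46556195-46556264, minus strand: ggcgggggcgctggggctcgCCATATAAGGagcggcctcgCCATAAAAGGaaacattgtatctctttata
Actg1, chr11:120348556-120348605, minus strand: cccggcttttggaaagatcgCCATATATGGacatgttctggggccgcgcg
Vil1, chr1:74409291-74409340, plus strand: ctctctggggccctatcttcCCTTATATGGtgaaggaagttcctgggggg
Arpc4, chr6:113377863-113377892, plus strand: CCTAATTTGGtgcccaacctgaggtcgggc

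Of these 4 genes, Arpc4 rose, and Srf, Actg1 and Vil1 did not pass. The search took the CArG box by its consensus of 10 bases, which reads the same on both strands. It matched the promoters of 4 of 42 members with one listed (9.52%) and of 1.81% of all 27025 genes with one listed. Among members that rose, 1 of 14 had a match, and among those not called, 3 of 23. The Arpc4 match begins 250 bases before the start, at the edge of the window. Actb, Actg2, Cttn, Diaph1 and Plec were not listed.

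Genes of the SRF and MRTF axis rose in 19 of 26 and fell in 1, against 12.9% and 11.3% of all genes, with a median difference of 0.81. Tagln, transgelin, rose by 2.65, Tpm1, a tropomyosin, by 1.55, Ccn1, a matrix-associated protein, by 1.59 and Cnn1, calponin, by 1.34 (limma adjusted p = 8.43e-07 to 8.71e-06). Filip1l, with mean signals of 4.18 in knockdown and 4.50 in control, both under the arrays' lower quartile, was the one called lower. These genes were listed from textbooks, but with earlier results of these data known, so their count is no independent evidence. CArG boxes matched 9 of the 22 listed promoters of this axis (40.9%), for example those of Vcl, vinculin, which rose by 0.91, of Myl9, a myosin light chain, which rose by 1.64, and of Acta1, skeletal alpha-actin, which rose by 0.85. Of these 9 genes 8 rose, and the other was Filip1l, while of all 22 genes with a listed promoter 17 rose. Whether a box goes with a rise was not tested. The genes were listed for their link to SRF and MRTF, so their share with a box is no independent evidence either. The 3 promoters named are shown so that their boxes can be set beside those of the members.
Vcl, chr14:20929151-20929200, plus strand: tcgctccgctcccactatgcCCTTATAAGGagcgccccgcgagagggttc
Myl9, chr2:156775283-156775332, plus strand: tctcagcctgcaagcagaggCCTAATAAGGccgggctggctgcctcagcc
Acta1, chr8:123894819-123894868, minus strand: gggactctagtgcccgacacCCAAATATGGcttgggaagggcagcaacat

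Of 5 other actin and actin-like genes 3 rose and 1 fell, against 12.9% and 11.3% of all genes. The 3 that rose are also counted in the SRF and MRTF axis. Acta2, smooth muscle alpha-actin, rose by 1.15, Acta1 by 0.85 and Actc1, cardiac alpha-actin, by 0.58, while Actl6a, an actin-like subunit of chromatin remodellers, fell by 0.41. Whether these differences differ from those of Actb and Actg1 was not tested.

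Outside the members, 36 of 101 further genes of actin pathways rose (35.6%) and 8 fell (7.92%), against 12.9% and 11.3% of all genes. Without the genes of the SRF and MRTF axis 17 of 75 rose (22.7%) and 7 fell (9.33%). Among 18 other Arp2/3 subunits, activators and inhibitors 5 rose and 1 fell. Cyfip2 and Brk1, subunits of the WAVE complex that switches on Arp2/3, rose by 0.99 and 0.67, Coro1a, a coronin, rose by 0.72, and Was, the blood cell relative of Wasl, fell by 0.53. Of 16 other nucleators and elongators 2 rose and 3 fell, with Spire1, a nucleator of straight filaments, up by 1.11 and Fmn2, a formin, up by 0.30. Cobl, another nucleator, fell by 0.61 and Spire2 fell by 0.27.

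Of 21 other severing, capping and monomer-binding genes 3 rose (14.3%) and 1 fell (4.76%), against 12.9% and 11.3% of all genes. Dstn, the cofilin relative destrin, rose by 0.37, Eps8l2, a relative of the capping protein Eps8, rose by 0.47, Scin, a gelsolin relative, rose by 0.53, and Twf2, a twinfilin, fell by 0.69. Crosslinkers, of which Pdlim7 and Flna are also counted in the SRF and MRTF axis, rose in 9 of 20 and fell in 1. The 4 with the smallest p were Pdlim7, up by 0.85, Dbn1, drebrin, by 0.67, Pls3, T-plastin, by 0.49 and Plekhg3 by 0.43.

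**Figure D5:**
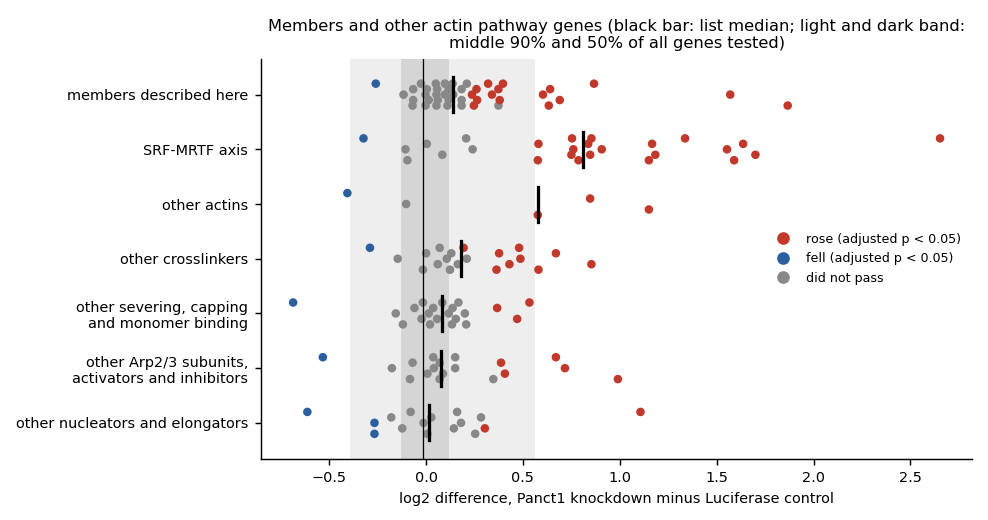
Log2 difference, knockdown minus control, of the 43 members and of 6 lists of other actin pathway genes, 1 dot per gene coloured by call, with the list median as a bar and the spread of all genes tested as bands. The SRF and MRTF list has a median of 0.81, other actins have 0.58, other crosslinkers 0.18 and the members 0.14. The lists of other nucleators, other Arp2/3 genes and other severing genes have 0.0167 to 0.08.

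Markers of cell types were counted in the same way, to be set against 12.9% of all genes risen and 11.3% fallen. Of 10 trophectoderm markers 9 rose and 0 fell (limma, with 0 lower at an unadjusted p under 0.05), and their mean log2 signal was 8.76 to 8.77 on knockdown arrays and 7.43 to 7.49 on control arrays, with Elf5 below the lower quartile. Of 10 muscle markers 5 rose, among them Acta2, Cnn1 and Actc1 of the lists above, with mean signals of 6.71 to 6.84 in knockdown and 6.35 to 6.42 in control, and Tnnt2 was below the lower quartile. Fibroblast markers rose in 2 of 10 (5.74 to 5.77 in knockdown, 5.61 to 5.73 in control, Lum below the lower quartile), primitive endoderm markers rose in 1 of 10 and fell in 3 (6.38 to 6.50 in knockdown, 6.49 to 6.57 in control), and blood cell markers rose in 0 of 8 and fell in 1 (5.78 to 5.80 in knockdown, 5.90 to 5.93 in control, Ptprc and Itgam below the lower quartile). Stem cell markers rose in 0 of 10 (1 higher at an unadjusted p under 0.05) and fell in 4 (12.65 to 12.70 in knockdown, 12.77 to 12.88 in control). Those that fell were Esrrb, by 0.50, Zfp42, by 0.42, Pou5f1, by 0.24, and Utf1, by 0.20. The part of any of these cell types in the changes of the actin genes was not tested. In RNA of whole cultures, a different share of a cell type and a different RNA level per cell cannot be told apart.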

How the data were processed

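The deposited values are log2 RMA signals, 1 per probe set and array, on Affymetrix mouse arrays. Per the submitters' processing notes GCOS 1.4 and RMA were used by the authors, while the arrays that were normalised together are not stated there. The log2 values were used as deposited. Depth does not apply to arrays, and the 6 arrays limit the precision. RMA pulls differences of dim sets towards 0.

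Of 45101 probe sets, 64 control sets were left out. Of the rest, 34945 had 1 gene symbol, 932 several and 9160 none in the platform annotation, and 34741 symbols were updated through gene IDs (RefSeq, GRCm38.p6). Each gene was read by its probe set with 1 symbol and the highest mean over 6 arrays. limma 3.58.1 (R 4.3.3) fitted the group as the only term over 18193 genes, and again over 45037 probe sets. Tests were two-sided, with Benjamini-Hochberg adjusted p under 0.05. On simulated data for this comparison, with 50 of 18193 genes shifted at each size, the fit recovered 16% at 0.3 log2 units, 64% at 0.6, 88% at 1 and 100% at 2, with 3 calls among unchanged genes. Far fewer genes were shifted there than the 24.2% called in the data, which makes the adjusted threshold stricter. The recovered shares therefore need not hold for the data.

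The members, lists and tests were chosen with earlier results of these data known. Values per array are given for called members with a difference of at least 0.4 and for Actb, Actg1, Cfl1, Pfn1, Actr3 and Srf, and for others where the text turns on them, and up to 4 called genes with the smallest p are named from each of 6 pathway lists. Of the lists planned, 1 more is not reported here. Any name beyond this rule was picked with its values in view. The labels do not say that replicates came from separate cultures, so p-values cover only the scatter among these samples, possibly a technical one. Alternatives were the replicate number as a block, other scalings, variance models, probe set choices, a 1.5-fold minimum and leaving out each array.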

Additional observations from a re-analysis of the deposited data

How the results depend on the processing

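Of the 17 called members, 5 (Arpc4, Arpc5, Diaph2, Gsn and Limk2) kept their call under all 17 alternatives. The other 12 lost it under at least 1, with Actr3, Daam1 and Msn losing it only under the 1.5-fold minimum. Of the uncalled members, 7 passed under at least 1. No member's called difference changed sign. Members that rose numbered 16, and 7 with a 1.5-fold minimum, and 11 to 16 on leaving out each array. Members that fell numbered 1. The count was 0 with the 1.5-fold minimum, 2 with an intensity trend and robust variance, with the mean of probe sets, without _x_at and _s_at probe sets and with the most variable probe set, and 0 to 1 on leaving out each array. With the 1.5-fold minimum 837 genes rose and 390 fell, against 2355 and 2049. Of the members' 110 probe sets 28 rose and 5 fell, and 14 and 2 with that minimum. On leaving out each array 4 to 8 of these sets fell, with 8 without Luciferase control replicate 2.

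Deviations from the group means correlated at -0.19, -0.26 and -0.10 between same-numbered arrays, and 0 arrays correlated best with their own number. Knockdown replicates 1, 2 and 3 correlated best with control replicates 2, 3 and 1, at 0.27, 0.28 and 0.21. Deviations within a group sum to 0, so these values cannot show which arrays were handled together. With the replicate number as a block 12 members rose and 0 fell. Centring each array on its median over the tested genes, chosen after seeing the data, left 13 risen and 1 fallen member, and the share of rises among all calls was 38.9%, against 53.5%. The causes of these changes were not tested, apart from the minimum, which removes small changes by construction.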
